A study of Homo sapiens with 6 samples.

Results

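The 10 genes described here are the coactivator genes YAP1 and WWTR1, the TEAD transcription factor genes TEAD1 and TEAD4, the angiomotin-like genes AMOTL1 and AMOTL2, the kinase gene LATS2, and the target genes CCN1, CCN2 and ANKRD1. They were chosen by symbol, as the genes of the YAP/TEAD pathway, and each was found as 1 row among the 18398 genes of the deposited count table. RNA sequencing compared SUM159 cells stably overexpressing POGK from a pLVX lentiviral vector (3 libraries, called POGK cells) with SUM159 cells carrying pLVX, labelled control (3 libraries, called control cells). SUM159 is a widely used human line from a triple-negative breast cancer, with mesenchymal character, and all cells were grown in serum, insulin and hydrocortisone. POGK is a KRAB-domain protein derived from a pogo transposon. The labels do not say how many independent cell lines or cultures stand behind the libraries of a group, so p-values describe the spread between these libraries alone, and that spread may be technical.

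YAP1 and its paralog TAZ, the product of WWTR1, bind no DNA themselves and act through the TEAD proteins, which bring them to enhancers and promoters. The Hippo kinase cascade restrains them: the kinases LATS1 and LATS2 phosphorylate YAP and TAZ, which are then held in the cytoplasm or degraded, and the angiomotins bind them directly. CCN1, CCN2, ANKRD1, AMOTL2 and LATS2 are widely used readouts of YAP and TAZ activity, and the last of these and AMOTL2 feed back to limit it. The activity itself lies in protein location and phosphorylation, which mRNA counts do not measure.

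The letters GGAATG, the core that TEAD proteins recognise, were searched on both strands of RefSeq promoter windows (GRCh38.p14) running from 250 bases before to 50 bases after the transcription start that RefSeq's table uses. Windows were matched for 7 of the 10 genes, and CCN1, TEAD1 and TEAD4 had no entry. For CCN2, ANKRD1, YAP1 and LATS2 that start is also the start of the gene in GENCODE 44, and for AMOTL2 it lies 62 bases inside it. For WWTR1 and AMOTL1 the table's start lies 33441 and 61925 bases inside the gene, at another start site, so the outermost starts of this pair were not searched. The letters were found in 4 of the 7, those of CCN2, ANKRD1, YAP1 and LATS2, against 14.0% of 35116 windows of the same length. CCN2 held them 3 times, 169, 104 and 95 bases before the start. ANKRD1 held them 220 and 128 bases before the start and LATS2 from base 10 after it. The letters TGANTCA, a loose form of the AP-1 motif in which N is any base, were found in the window of ANKRD1 alone. The match there was TGATTCA, 195 bases before the start, and 7.71% of all windows matched the loose form. Whether AP-1 binds these letters was not tested. The CArG box of serum response factor was found in none of the 7, against 1.29%. No match says only that these letters are not in the window. The stretches below are shown because they belong to target genes that went in opposite directions: CCN2 and ANKRD1 were higher in POGK cells and LATS2 was lower. The first pair are the 250 bases before the start, at chr6:131951373-131951622 and chr10:90921088-90921337. The third runs from 20 bases before to 15 bases after the start, at chr13:21061572-21061606. All lie on the minus strand and are written 5′ to 3′, with GGAATG in capitals.
CCN2: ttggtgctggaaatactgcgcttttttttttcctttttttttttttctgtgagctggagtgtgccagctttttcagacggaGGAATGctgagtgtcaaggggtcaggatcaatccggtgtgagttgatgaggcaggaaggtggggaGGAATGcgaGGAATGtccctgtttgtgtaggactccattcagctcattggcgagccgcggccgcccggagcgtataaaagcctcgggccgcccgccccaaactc
ANKRD1: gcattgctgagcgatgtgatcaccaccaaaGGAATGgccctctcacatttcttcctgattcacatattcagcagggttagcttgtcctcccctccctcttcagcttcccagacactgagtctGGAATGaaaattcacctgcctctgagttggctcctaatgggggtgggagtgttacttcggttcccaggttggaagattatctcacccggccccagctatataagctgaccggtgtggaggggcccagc
LATS2: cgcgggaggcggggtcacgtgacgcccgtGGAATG

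Depth was 27645789 to 33689230 counts per library. POGK itself averaged 768 ± 22.02 CPM in POGK cells and 69.0 ± 7.58 CPM in control cells (SD, n = 3 each; CPM is the count scaled to the TMM-adjusted size of its library), so the labels fit the introduced gene. The control libraries spread more than the POGK libraries, and control replicate 1 stood apart. It was the highest control library for 62.6% of the 5285 genes called lower in POGK cells and the lowest for 64.8% of the 5202 called higher. VIM and CD44, which mark this mesenchymal line, were at 3345 ± 30.2 and 692 ± 8.96 CPM in POGK cells, against 5960 ± 791 and 831 ± 70.6 CPM in control cells. The epithelial gene EPCAM and the estrogen receptor gene ESR1 stayed at or below 0.34 CPM in each library, and PGR and CDH1 are not analysed here. Of 6 markers of other cells, 3 had values: PTPRC, of leukocytes, averaged 1.66 ± 0.30 CPM in POGK cells and 0.53 ± 0.22 CPM in control cells and was called higher (edgeR adjusted p = 0.00148). PECAM1, of endothelium, averaged 3.97 ± 0.09 CPM in POGK cells and 5.18 ± 0.82 CPM in control cells and was called lower (edgeR adjusted p = 0.0433). DCN, of fibroblasts, averaged 163 ± 3.06 CPM in POGK cells and 396 ± 71.4 CPM in control cells and was called lower (edgeR adjusted p = 3.24e-05). Whether the SUM159 cells themselves express DCN was not tested. CD3E, CDH5 and ALB are not analysed here. The part of such cells in the results below was not tested, and in bulk RNA fewer cells of a type and less RNA per cell cannot be told apart.

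Of the 10 genes, 3 rose in POGK cells (TEAD4, CCN2 and ANKRD1), 5 fell (WWTR1, TEAD1, CCN1, AMOTL2 and LATS2), and YAP1 and AMOTL1 did not pass edgeR's quasi-likelihood test at an adjusted p below 0.05. All 10 passed the filter on low counts. Over all 15889 genes tested, 66.0% were called, 32.7% as higher and 33.3% as lower, and a set of 8 called members of 10 is read against that share. Libraries of POGK and control cells were fully separated for 9 of the 10 genes, all but YAP1, and for 73.7% of all genes. Log2 fold changes of POGK over control ran from -1.80 for LATS2 to 0.84 for CCN2, around a median of -0.20, where all genes had a median of 0.00 and quartiles at -0.54 and 0.51. WWTR1, TEAD1, TEAD4, ANKRD1, YAP1 and AMOTL1 lay between these quartiles, so the called genes among them moved no more than many other genes. LATS2, AMOTL2, CCN1 and CCN2 lay outside them. In the authors' deposited table the same threshold also gave 3 members higher and 5 lower, beside 29.0% higher and 30.1% lower over all its genes.

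**Figure D1:**
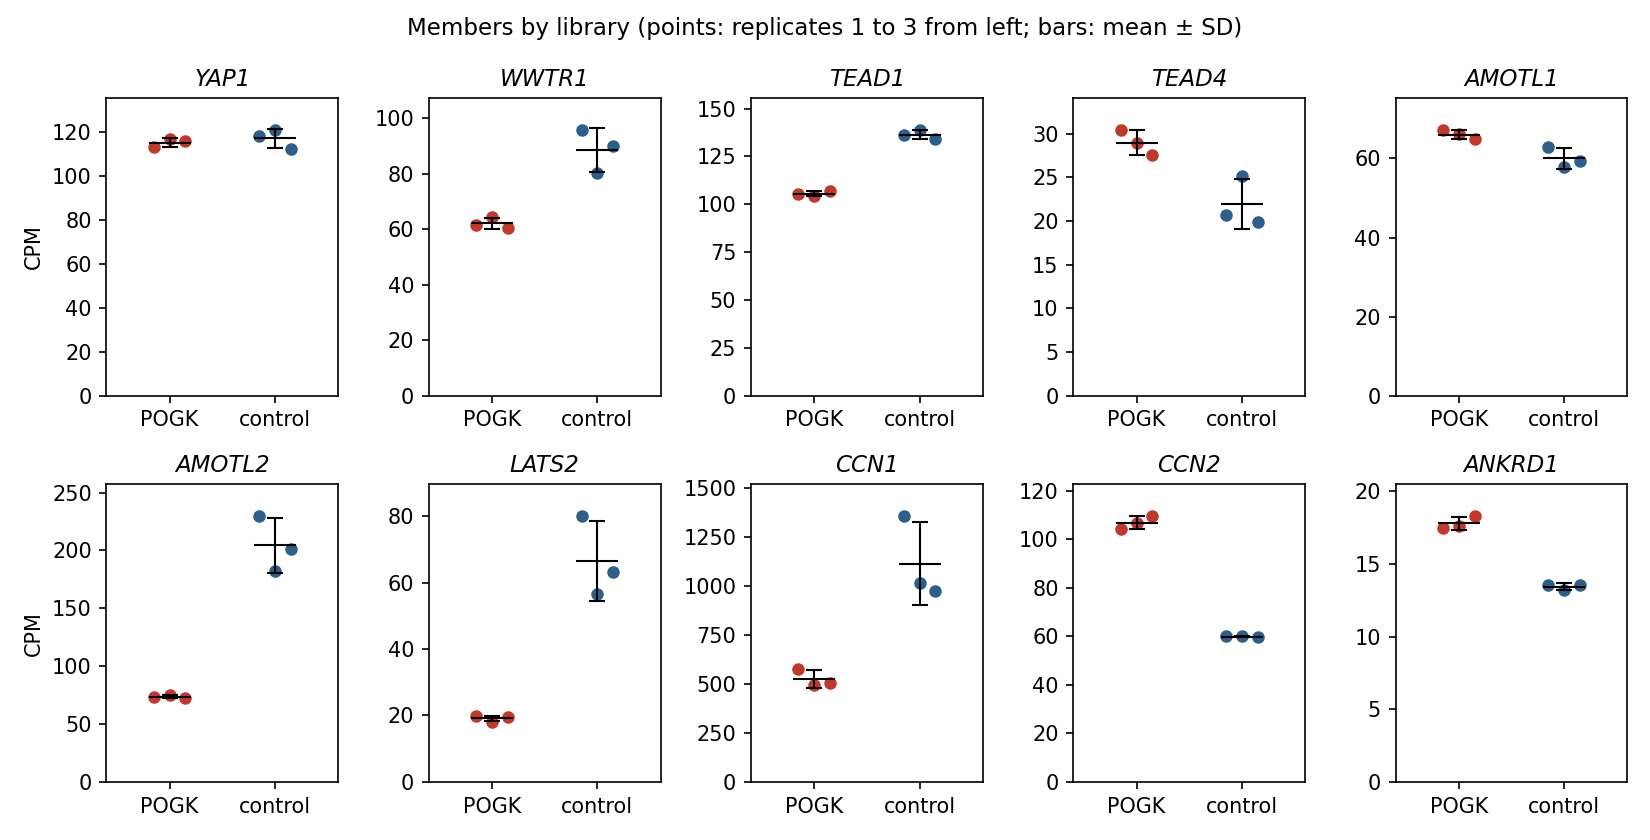
Each panel plots the TMM-scaled CPM of a member (vertical axis, from 0) in the 3 POGK libraries (left, red) and the 3 control libraries (right, blue), with replicates 1 to 3 from left to right and the mean ± SD as black bars. The groups overlap for YAP1 alone, and control replicate 1 is the highest library for WWTR1, AMOTL2, LATS2 and CCN1.

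The coactivator YAP1 (ENSG00000137693; hg38 chromosome 11, 102110447 to 102233424, plus strand) had 4042, 4218 and 3426 raw counts in POGK libraries and 2931, 3785 and 3327 in control libraries. Scaled, these were 113, 117 and 116 CPM in POGK libraries, against 118, 121 and 112 CPM in control libraries. The groups overlapped, and control replicate 3 was below each POGK library. On the log2 scale the fold change was -0.02 ± 0.06 (SE; edgeR adjusted p = 0.757). Noncoding genes on the opposite strand share 628 and 11 bases of exon with YAP1. The strand setting of the counting is not given, and their part in its counts was not tested. With library size alone as scaling, YAP1 passed at 0.17 (edgeR adjusted p = 0.0448), and 5 members were called higher and 5 lower. That scaling put the median gene at 0.19 and called 41.4% of all genes higher (6575) and 24.7% lower (3925), in place of 5202 and 5285, so YAP1 remained near the median gene under either scaling.

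WWTR1 (ENSG00000018408; chromosome 3, 149517235 to 149736714, minus strand), which encodes TAZ, fell. It stood at 61.7, 64.3 and 60.5 CPM in POGK libraries, against 95.8, 80.3 and 89.9 CPM in control libraries. All POGK libraries lay below the lowest control library, replicate 2. On the log2 scale the fold change was -0.51 ± 0.08 (SE; edgeR adjusted p = 4.94e-04). The antisense gene WWTR1-AS1 shares 756 bases of exon with WWTR1. It held 12 to 13 counts in POGK libraries and 5 to 11 in control libraries, against 1794 to 2328 and 2381 to 2670 counts of WWTR1. The strand setting of the counting is not given in the sources used here, so the part of the shared bases in either count was not tested.

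The balance of the coactivators was compared within each library, where scaling between libraries has no part. YAP1 made up 70.8, 70.6 and 71.7% of the summed reads per kilobase of exon of YAP1 and WWTR1 in POGK libraries, against 62.0, 66.6 and 62.3% in control libraries. The share was thus higher in each POGK library, by 7.40 percentage points on average. A two-sided exact permutation test of this share gave p = 0.1, the smallest that 3 against 3 libraries allow, and 0.1 after adjustment over the 7 shares tested. The summed level of the pair was 25.7 ± 0.45 CPM per kilobase in POGK cells and 29.1 ± 0.89 in control cells, a ratio of 0.88 with no overlap (exact permutation p = 0.1, adjusted 0.125 over 5 sums). That lower sum is lost with library size alone as scaling, where the groups overlap, at 27.5 ± 0.63 CPM per kilobase in POGK cells and 27.2 ± 0.48 in control cells, a ratio of 1.01.

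The DNA-binding partners moved apart. TEAD1 (ENSG00000187079; chromosome 11, 12674421 to 12944737, plus strand) stood at 106, 104 and 107 CPM in POGK libraries, against 136, 139 and 134 CPM in control libraries. It fell, with a log2 fold change of -0.37 ± 0.06 (SE; edgeR adjusted p = 6.28e-04). TEAD4 (ENSG00000197905; chromosome 12, 2959330 to 3040676, plus strand) stood at 30.4, 29.0 and 27.6 CPM in POGK libraries, against 20.7, 25.2 and 19.8 CPM in control libraries. It rose, with a log2 fold change of 0.40 ± 0.11 (SE; edgeR adjusted p = 0.00923). Here control replicate 2 lay closest to the POGK libraries. Of the remaining family members, TEAD2 rose (log2 fold change 0.46, edgeR adjusted p = 0.00184), whereas TEAD3, at -0.12, did not pass (edgeR adjusted p = 0.227).

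Per length, TEAD1 took 21.3 ± 0.84% of the reads of TEAD1 to TEAD4 in POGK cells and 29.2 ± 1.33% in control cells (SD, n = 3 each). The share of TEAD4 was 28.0, 27.5 and 27.0% in POGK libraries, against 21.8, 23.8 and 20.5% in control libraries. Per length, TEAD4 was the larger of the pair in each POGK library and the smaller in each control library, but by reads alone TEAD1 was the larger in all 6, with 51.3 ± 1.24% of the family's reads in POGK cells and 61.3 ± 1.47% in control cells. By reads TEAD4 had 14.1 ± 0.45% in POGK cells and 9.83 ± 0.92% in control cells. Neither share overlapped between groups (exact permutation p = 0.1 for each, adjusted 0.1). The summed level of the family did overlap, at 46.3 ± 1.51 CPM per kilobase in POGK cells and 43.7 ± 2.60 in control cells (exact permutation p = 0.3), although with library size alone it did not, at 49.5 ± 1.38 in POGK cells and 40.9 ± 3.88 in control cells. These levels rest on annotated exon lengths, 10700 bases for TEAD1 and 2275 for TEAD4, and the length actually transcribed in these cells was not measured. Without division by length, the difference in the share of TEAD1, POGK minus control, was -9.99 percentage points in place of -7.88.

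**Figure D2:**
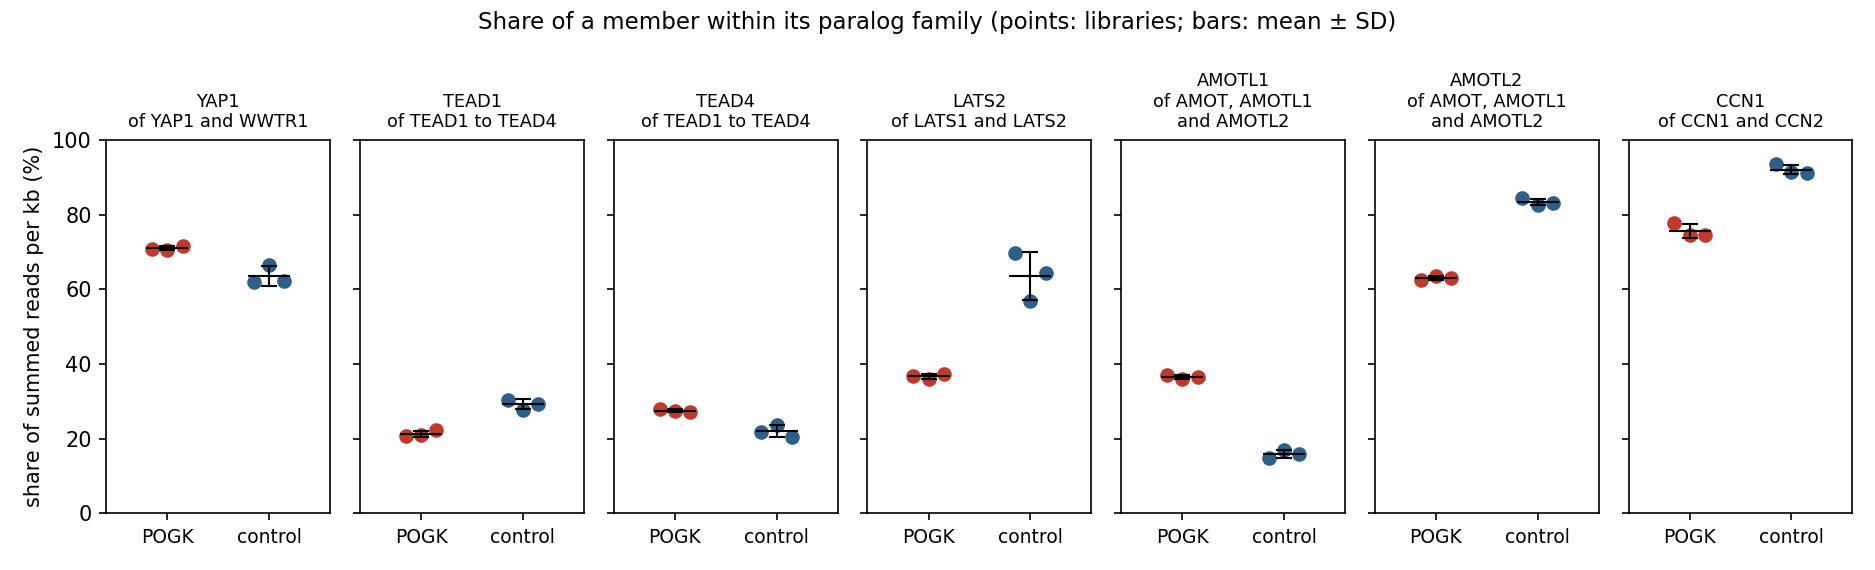
Each panel plots the share (vertical axis, percent of summed reads per kilobase of exon) that a member takes of its paralog family in the 3 POGK libraries (left, red) and the 3 control libraries (right, blue), with mean ± SD as black bars. No share overlaps between the groups, and the share of LATS2 differs most, at 36.7% in POGK cells and 63.7% in control cells.

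Among the inhibitors, LATS2 and AMOTL2 fell and AMOTL1 did not pass. LATS2 (ENSG00000150457; chromosome 13, 20973036 to 21061586, minus strand), a kinase that phosphorylates YAP and TAZ and is induced by them, stood at 19.7, 18.1 and 19.5 CPM in POGK libraries, against 80.0, 56.5 and 63.3 CPM in control libraries. The POGK libraries lay close together and far below each control library. The fall was 3.48-fold, or -1.80 ± 0.13 on the log2 scale (SE; edgeR adjusted p = 9.68e-06), and 4.34% of all genes tested had a lower log2 fold change. Its paralog LATS1 averaged 49.7 ± 1.06 CPM in POGK cells and 56.8 ± 7.06 CPM in control cells and did not pass (edgeR adjusted p = 0.0986). LATS2 therefore took 36.7 ± 0.70% of the reads per length of LATS1 and LATS2 in POGK cells and 63.7 ± 6.46% in control cells (exact permutation p = 0.1, adjusted 0.1). The summed level of the 2 kinase genes was 9.26 ± 0.26 CPM per kilobase in POGK cells and 18.6 ± 1.66 in control cells, a ratio of 0.50.

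AMOTL2 (ENSG00000114019; chromosome 3, 134355347 to 134375479, minus strand), an angiomotin that binds YAP and is itself a YAP target, stood at 73.3, 75.4 and 72.5 CPM in POGK libraries, against 230, 182 and 202 CPM in control libraries. It fell 2.77-fold, with a log2 fold change of -1.47 ± 0.09 (SE; edgeR adjusted p = 5.79e-06). The ribosomal protein pseudogene RPL39P5 overlaps 187 bases of its exons and held 0 to 1 counts in POGK libraries and 10 to 16 in control libraries, against 2150 to 2728 and 5705 to 5984 counts of AMOTL2. AMOTL1 (ENSG00000166025; chromosome 11, 94706431 to 94876748, plus strand), a second angiomotin-like protein, stood at 67.2, 66.1 and 64.8 CPM in POGK libraries, against 62.8, 57.8 and 59.4 CPM in control libraries. The groups did not overlap, but the log2 fold change of 0.14 with a standard error of 0.07 did not pass (edgeR adjusted p = 0.091). It passed with library size alone, at 0.33 (edgeR adjusted p = 0.00184), and without control replicate 1, at 0.18 (edgeR adjusted p = 0.0184). A noncoding gene on the opposite strand shares 496 bases of exon with AMOTL1, and its part in the counts was not tested.

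AMOT, the founding angiomotin, averaged 0.79 ± 0.19 CPM in POGK cells and 2.37 ± 0.74 CPM in control cells and fell (edgeR adjusted p = 0.00145), so the family consisted almost wholly of AMOTL1 and AMOTL2. AMOTL1 made up 36.5 ± 0.50% of the family per length in POGK cells and 15.9 ± 1.00% in control cells. AMOTL2 made up 63.0 ± 0.60% in POGK cells and 83.4 ± 0.90% in control cells. AMOTL2 thus stayed the larger in every library (exact permutation p = 0.1 for each share, adjusted 0.1). The summed family level was 18.1 ± 0.30 CPM per kilobase in POGK cells and 37.8 ± 3.99 in control cells, a ratio of 0.48.

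The target genes split. CCN1 and CCN2 encode secreted matricellular proteins of the same family, and both are also induced by serum response factor, so their mRNAs are not read out by YAP alone. CCN1 (ENSG00000142871; chromosome 1, 85580761 to 85584589, plus strand) had 20696, 17886 and 15018 raw counts in POGK libraries and 33734, 31795 and 28910 in control libraries. These were 578, 494 and 507 CPM in POGK libraries, against 1358, 1015 and 974 CPM in control libraries. CCN1 fell 2.12-fold, with a log2 fold change of -1.08 ± 0.13 (SE; edgeR adjusted p = 1.44e-04).

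CCN2 (ENSG00000118523; chromosome 6, 131948176 to 131951372, minus strand), the gene whose promoter above carries 3 GGAATG matches, went the other way. It had 3733, 3852 and 3244 raw counts in POGK libraries and 1488, 1883 and 1766 in control libraries. Scaled, these were 104, 106 and 109 CPM in POGK libraries, against 59.9, 60.1 and 59.5 CPM in control libraries. The coefficient of variation was 2.40% over POGK libraries and 0.52% over control libraries. At these counts, sampling of reads alone gives a larger spread than 0.52% on average, so that value is not read as a trait of the gene. CCN2 rose 1.78-fold, with a log2 fold change of 0.84 ± 0.06 (SE; edgeR adjusted p = 1.08e-05). The noncoding gene LINC01013 overlaps 278 bases of its exons on the opposite strand and was not analysed here, so its reads cannot be told apart from those of CCN2 without the strand setting.

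ANKRD1 (ENSG00000148677; chromosome 10, 90912096 to 90921087, minus strand), an ankyrin repeat protein of muscle and wounded tissue, stood at 17.5, 17.6 and 18.3 CPM in POGK libraries, against 13.6, 13.2 and 13.6 CPM in control libraries. It rose 1.32-fold, with a log2 fold change of 0.40 ± 0.09 (SE; edgeR adjusted p = 0.00305). The libraries of each group lay close together, closer than sampling of reads alone gives on average at its counts. The share of CCN1 in the summed reads per length of CCN1 and CCN2 was 77.8, 74.6 and 74.5% in POGK libraries, against 93.5, 91.4 and 91.2% in control libraries. CCN1 remained the more abundant of the pair in every library, although its share was 16.4 points lower in POGK cells (exact permutation p = 0.1, adjusted 0.1). The summed level of CCN1 and CCN2 was 188 ± 11.5 CPM per kilobase in POGK cells and 327 ± 57.0 in control cells, a ratio of 0.57. These sums did not overlap (exact permutation p = 0.1, adjusted 0.125 over 5 sums). With library size alone the ratio was 0.66, also without overlap.

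**Figure D3:**
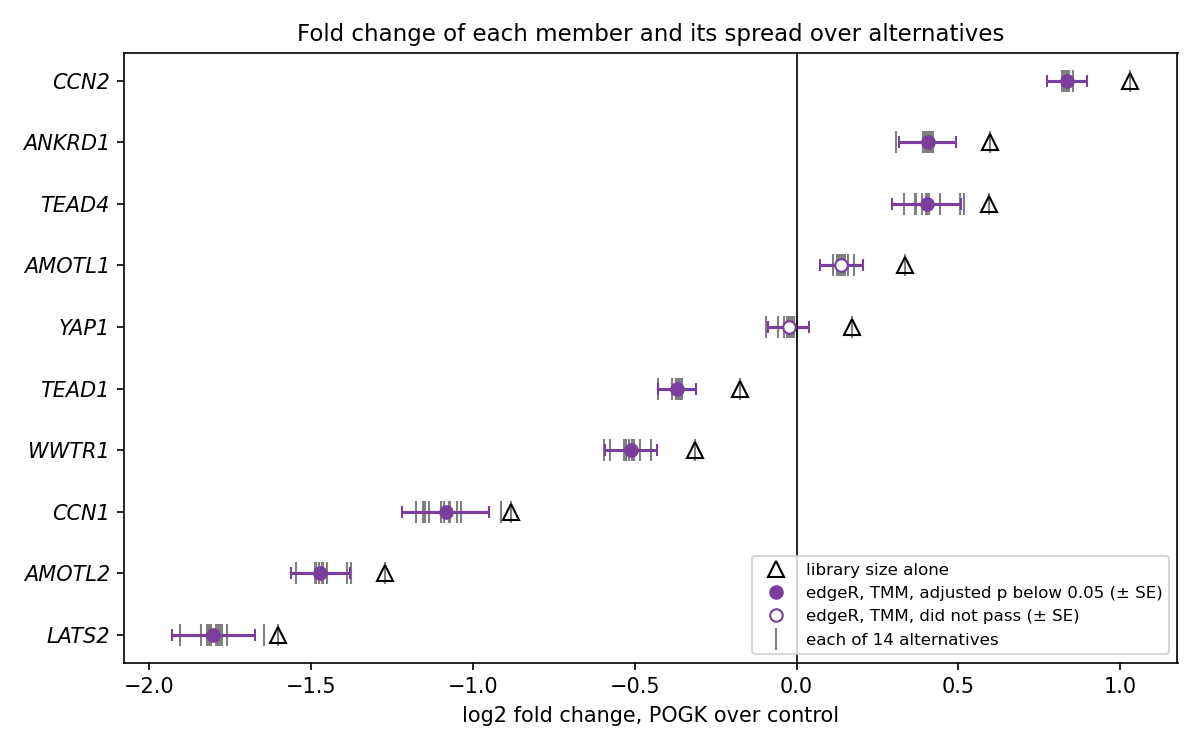
The horizontal axis is the log2 ratio of POGK to control cells for the 10 members; circles are the edgeR estimate with TMM scaling ± SE (filled where it passed), grey ticks the 14 alternatives and triangles library size alone. LATS2, AMOTL2, CCN1, WWTR1 and TEAD1 stay below 0 and CCN2, ANKRD1, TEAD4 and AMOTL1 above it in each alternative, while YAP1 lies on both sides.

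Several members varied among the control libraries themselves. Control replicate 1 exceeded the mean of the other 2 control libraries by 0.45 on the log2 scale for CCN1, 0.42 for LATS2, 0.26 for AMOTL2 and 0.17 for WWTR1. For CCN2, ANKRD1, TEAD1 and YAP1 the same difference was 0.00, 0.02, -0.00 and 0.02. The coefficient of variation of CCN1 was 8.63% over POGK libraries and 18.9% over control libraries. That of LATS2 was 4.44% over POGK and 18.1% over control libraries, and that of TEAD4, which rose, was 4.96% and 13.1%. Without control replicate 1 the log2 fold changes were -0.91 for CCN1, -1.65 for LATS2 and -1.38 for AMOTL2, and all still passed edgeR's test. Thus 4 of the 5 members that fell were highest in control replicate 1, beside 62.6% of all genes called lower. The part of this library in their spread was not tested.

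Ordered by level per kilobase of exon, CCN1 came first in both groups, at 142 ± 12.3 CPM per kilobase in POGK cells and 302 ± 57.0 in control cells. In POGK cells CCN2 was next, at 45.7 ± 1.09, and then YAP1, at 18.2 ± 0.30, whereas in control cells AMOTL2 was next, at 31.6 ± 3.68, followed by CCN2 at 25.6 ± 0.13 and YAP1 at 18.5 ± 0.71. LATS2 was the lowest of the 10 in POGK cells, at 3.40 ± 0.15, and the sixth in control cells, at 11.9 ± 2.15. AMOTL1 was the lowest in control cells, at 5.98 ± 0.26, and the ninth in POGK cells, at 6.58 ± 0.12. Neighbours whose libraries overlapped were ANKRD1 and TEAD1 in POGK cells, and in control cells TEAD1 with LATS2, LATS2 with WWTR1, and WWTR1 with TEAD4.

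Genes with the most similar profile were sought for YAP1 and CCN2 among 15829 other genes, by the root mean square difference of log2 CPM over the 6 libraries after centring each gene on its own mean. Nearest to CCN2 were VCP, TARDBP and SLIRP, with differences of 0.027, 0.032 and 0.033, and log2 fold changes of 0.83, 0.81 and 0.79. Nearest to YAP1 were SLC2A4RG, TLR3 and PRNP, with differences of 0.017, 0.018 and 0.018. With 6 libraries in 2 groups, such likeness mostly says that the group means and the control spread are alike.

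A list of 22 genes in common use as a YAP/TAZ target signature, which holds 5 of the members, also had genes called in both directions. Of the 22, 7 rose, 13 fell and 2 did not pass, beside 32.7% higher and 33.3% lower over all genes, and their median log2 fold change was -0.40. With library size alone, 9 were higher and 11 lower with a median of -0.21. There the median of all genes was 0.19, with 41.4% called higher and 24.7% lower. With the GC and length trends removed, 7 were higher and 12 lower with a median of -0.28, where that of all genes was 0.00. The genes that rose with CCN2 and ANKRD1 were AXL, F3, FJX1, NT5E and DOCK5. Apart from members, the genes with the smallest adjusted p all fell. TGFB2, a TGF-beta ligand, averaged 10.5 ± 0.22 CPM in POGK cells and 31.7 ± 1.62 CPM in control cells (edgeR adjusted p = 3.83e-06). CCDC80, a secreted matrix protein, averaged 64.9 ± 1.56 CPM in POGK cells and 188 ± 23.1 CPM in control cells (edgeR adjusted p = 5.78e-06). IGFBP3, which binds insulin-like growth factors, averaged 2.48 ± 0.35 CPM in POGK cells and 19.8 ± 5.62 CPM in control cells (edgeR adjusted p = 1.06e-05). Promoter windows were matched for 16 of the 22 genes, and 2 of them, of CCDC80 and RBMS3, lie over 1000 bases inside the GENCODE gene. Of the 7 whose window held GGAATG, 2 rose and 5 fell, and of the 9 without it 4 rose and 5 fell. CCDC80 and RBMS3 are among the 9, and both fell. The letters were found beside genes of either direction, and a match is not evidence of a bound site.

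**Figure D4:**
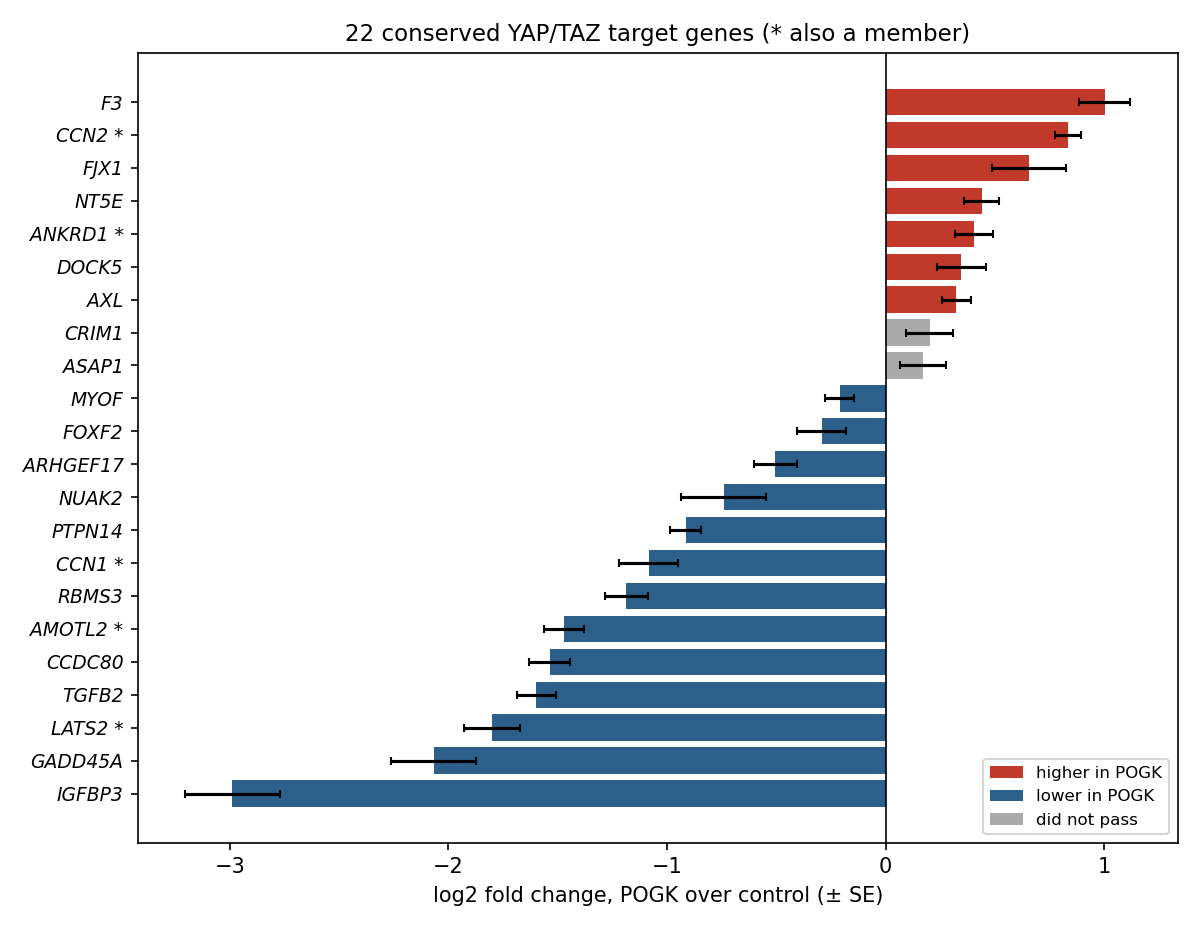
Bars give the log2 ratio of POGK to control cells (horizontal axis, ± SE) for 22 conserved YAP/TAZ target genes, with members starred. In red are the 7 that rose, in blue the 13 that fell and in grey the 2 that did not pass, from -2.99 for IGFBP3 to 1.00 for F3.

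The list of the Hippo cascade and its upstream regulators includes the members LATS2, AMOTL1 and AMOTL2. LATS2, AMOTL2 and PTPN14 were already counted among the 22 target genes. Of the 26 genes of the list, 6 rose, 11 fell and 9 did not pass, where 66.0% of all genes were called. Their median was -0.14 on the log2 scale. It was -0.19, -0.06 and -0.07 without control replicates 1, 2 and 3 in turn. With library size alone it was 0.05, with 8 genes higher and 9 lower. Under that scaling the median of all genes was 0.19, with 41.4% called higher and 24.7% lower. RASSF1, a scaffold of the upstream kinases, averaged 13.2 ± 0.81 CPM in POGK cells and 41.8 ± 6.79 CPM in control cells (edgeR adjusted p = 1.24e-05). PTPN14, a phosphatase that binds and restrains YAP, averaged 145 ± 2.73 CPM in POGK cells and 273 ± 17.0 CPM in control cells (edgeR adjusted p = 1.51e-05). FAT4, an atypical cadherin related to Drosophila Fat, averaged 15.2 ± 1.31 CPM in POGK cells and 39.8 ± 5.27 CPM in control cells (edgeR adjusted p = 2.08e-05). Of the kinase genes upstream of LATS, STK3 fell with -0.28 on the log2 scale, and STK4, at -0.01, did not pass. TAOK1 and TAOK2 rose, with 0.43 and 0.97, and TAOK3, at -0.08, did not pass. NF2, the gene of the upstream inhibitor merlin, rose with 0.88, and MAP4K4, a kinase that can act on LATS, rose with 0.79. STK3, STK4, the TAOK genes, NF2 and MAP4K4 were picked for mention from the list after their values were seen.

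Of 10 listed YAP/TAZ, TEAD and VGLL factors, which include the members YAP1, WWTR1, TEAD1 and TEAD4, 8 were in the table and tested. Among these 2 rose (TEAD2 and TEAD4), 4 fell (WWTR1, TEAD1, VGLL3 and VGLL4) and 2 did not pass, beside the 66.0% called over all genes. The median log2 fold change was -0.24, and -0.05 with library size alone, which called 3 higher and 4 lower. That scaling put the median of all genes at 0.19 and called 41.4% of them higher and 24.7% lower. VGLL4, which competes with YAP for TEAD, averaged 24.2 ± 0.72 CPM in POGK cells and 49.6 ± 5.66 CPM in control cells (edgeR adjusted p = 3.29e-05). VGLL3, another TEAD cofactor, averaged 59.9 ± 1.17 CPM in POGK cells and 98.5 ± 4.22 CPM in control cells (edgeR adjusted p = 2.86e-05). Both VGLL genes and the coactivator gene WWTR1 were therefore lower, and YAP1 was the factor nearest to 0.

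Serum response factor and its MRTF coactivators share several targets with YAP and TEAD, and 11 of 12 listed genes were tested. Of these, 4 rose (MRTFA, MRTFB, TAGLN and FHL2), 6 fell (ACTA2, CNN2, MYL9, TPM1, TPM2 and VCL) and SRF did not pass, beside the 66.0% called over all genes. The median was -0.26 on the log2 scale. With library size alone it was -0.07, with 4 genes higher and 4 lower. Under that scaling the median of all genes was 0.19, with 41.4% called higher and 24.7% lower. Without any 1 of the POGK libraries 4 of the list were higher and 4 lower as well, with list medians of -0.23 to -0.27. Those fits called fewer genes in general, 4400 to 4482 higher and 4567 to 4661 lower, in place of 5202 and 5285. MYL9, a regulatory myosin light chain, averaged 6.82 ± 0.29 CPM in POGK cells and 30.7 ± 2.41 CPM in control cells (edgeR adjusted p = 2.39e-06). ACTA2, smooth muscle actin, averaged 4.98 ± 0.17 CPM in POGK cells and 14.7 ± 2.71 CPM in control cells (edgeR adjusted p = 3.98e-05). CNN2, a calponin, averaged 157 ± 7.41 CPM in POGK cells and 237 ± 17.4 CPM in control cells (edgeR adjusted p = 1.89e-04). TAGLN, the gene of the actin-binding protein transgelin, went the other way, at 5.05 ± 0.14 CPM in POGK cells and 3.60 ± 0.30 CPM in control cells (edgeR adjusted p = 0.0092), and was picked for mention after its values were seen.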

How the data were processed

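The authors deposited raw read counts per Ensembl gene for 6 libraries, and per the labels' protocols ribosomal RNA was removed from total RNA and reads were aligned to hg38. The submitters' processing notes name Trimmomatic, STAR, SAMtools, deepTools and featureCounts. The annotation and the strand setting for counting were not given in the sources used here. Per the file headers the deposited table also holds the authors' log2 fold changes with standard errors, p-values, a test score and, from its values, a signal column per library that is the count divided by a size factor. Those columns enter the text where it names the authors' deposited table and nowhere else.

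Counts were tested with edgeR 4.0.16 (quasi-likelihood, robust, TMM, default filter, Benjamini-Hochberg over 15889 genes, called below 0.05) in R 4.3.3. Standard errors were derived from the F statistic. Levels per kilobase used exon lengths of GENCODE 44, whose build is that of the files, and 18264 of 18398 identifiers matched it. Within-library shares and summed levels were compared by a two-sided exact permutation test (scipy 1.17.1), and lists were described by counts and medians without a test. Library pairs of a group differed by a chi-square per gene of 1.36 to 2.62 among POGK and 22.5 to 49.7 among control libraries, so none was merged, and one common spread per gene was fitted to both groups. Alternatives were DESeq2 1.42.0, limma-voom (limma 3.58.1), other size factors, library size alone, other filters, a replicate block and each library left out. Removal of GC and length trends, and the alternatives for summed levels, were chosen after seeing the data. The main edgeR fit was also tested on simulated counts, and the alternatives were not. Few genes were changed in that simulation and both groups had the same spread. Most genes are called in these data and the control libraries spread more, so the simulation does not cover that setting. The members and lists were chosen with earlier results of these data known. Named genes were the 10 members, POGK, the paralogs in the shares, the 3 genes of each list outside the members with the smallest adjusted p, and the 3 genes nearest in profile to YAP1 and CCN2. A list's other genes are named only with their direction unless the text says otherwise.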

Additional observations from a re-analysis of the deposited data

How the results depend on the processing

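Over the 14 alternatives, WWTR1, TEAD1, CCN1, AMOTL2 and LATS2 stayed lower and TEAD4, CCN2 and ANKRD1 higher, and each passed in all 14. With library size alone 5 members were called higher in place of 3, because YAP1 (log2 fold change 0.17) and AMOTL1 (0.33) passed. AMOTL1 also passed without control replicate 1, at 0.18. With 1 library left out in turn, YAP1 ranged from -0.056 to 0.0016, the last value without control replicate 2, and never passed. Without division by exon length, the differences between POGK and control cells in paralog share were -9.99 points for TEAD1, 24.4 for AMOTL1, -24.1 for AMOTL2 and -11.7 for CCN1, in place of -7.88, 20.6, -20.4 and -16.4, which follows from the unequal lengths. For the summed family levels, library size alone and the libraries left out in turn were added after seeing the data. Library size alone gave ratios of POGK over control of 1.01 for YAP1 and WWTR1, 1.21 for TEAD1 to TEAD4, 0.57 for the LATS genes and 0.55 for the angiomotins, in place of 0.88, 1.06, 0.50 and 0.48. For CCN1 and CCN2 it gave 0.66 in place of 0.57. With the GC and length trends removed, LATS2 was at -1.78. The labels give both groups replicates 1 to 3, but same-numbered libraries correlated at 0.087, 0.041 and 0.0028 in their deviations from the group means, so the numbers are not taken to pair them. With the replicate block the log2 fold change was -1.79 for LATS2 and -1.07 for CCN1, and 5136 genes were higher and 5103 lower over all genes. With 3 libraries per group the exact tests of shares could not go below 0.1. The lowest member by counts, ANKRD1, rested on 542 to 638 counts per POGK library and 337 to 413 per control library.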
